A study of Mus musculus with 12 samples.

Results

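The receptors, ligands and bridging proteins with which the RPE takes up shed photoreceptor outer segments (OS) were followed in RNA sequencing of WT and rd6 RPE. The group holds 10 of the 28591 genes quantified, listed by symbol for their roles, with earlier results of these data known: the TAM receptor genes *Mertk*, *Axl* and *Tyro3*, their ligand genes *Gas6* and *Pros1*, the integrin chain genes *Itgav* and *Itgb5*, the bridging protein gene *Mfge8*, the scavenger receptor gene *Cd36*, and *Rubcn*, a regulator of LC3-associated phagocytosis. All 10 passed the filter on low values that left 17768 genes for testing. There were 6 WT libraries from C57BL/6J mice and 6 from rd6 mice, which are homozygous for the rd6 allele of *Mfrp* (*Mfrp* rd6/rd6). All mice were 1 mo old, and RPE of the left and right eye was pooled per library before total RNA was extracted. The allele is carried in every cell of the animal, so these libraries do not separate its effect in the RPE from its effect elsewhere, and whether WT and rd6 animals were littermates is not given in the sources used here. The study looked at OS phagocytosis in rd6 mice because earlier accounts of it conflicted. The values below bear on the mRNA levels of the uptake machinery, not on uptake itself.

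Photoreceptors shed the tips of their outer segments every day, and the RPE engulfs and digests them. The exposed lipid phosphatidylserine on the tips is bridged to the RPE surface by MFG-E8, which docks on alpha-v beta-5 integrin, and by Gas6 and protein S, which carry a Gla domain and activate the receptor tyrosine kinase MerTK. Integrin docking sets off signalling through focal adhesion kinase and Src, MerTK drives ingestion, and part of the ingested material is then handled by LC3-associated phagocytosis. Loss of MerTK blocks ingestion and causes retinal degeneration in rodents and people.

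The libraries held 29218135 to 33152725 reads on genes in WT and 28907262 to 32336530 in rd6. Values are normalized counts, that is reads per gene divided by the size factor of the library, and log2 fold changes are rd6 over WT on the log2(value + 1) scale. *Mfrp* itself was still transcribed in rd6, at 25881 ± 3091 against 40022 ± 5488 normalized counts in WT (SD, n = 6 each). The log2 fold change was -0.63 (SE 0.11, q = 0.00126, where q is the Benjamini-Hochberg adjusted p of limma) with no overlap between genotypes. The rd6 allele is known to make the transcript skip an exon, so a count over the whole gene is a limited check of the labels. Its exons overlap those of 3 other genes, so its count is uncertain. RPE markers were abundant in all libraries, with summed levels of 1518498 to 2288803 in WT and 1432526 to 1930878 in rd6, and 4 of the 11 markers were lower in rd6 and 7 not called. *Best1*, the RPE chloride channel bestrophin, was nearly absent, at 9.33 to 48.7 normalized counts, and is named for that. *Rgr*, an opsin of the RPE, fell from 622536 ± 80473 to 338693 ± 50312, *Rlbp1*, the retinal-binding protein CRALBP, fell from 173187 ± 22531 to 125990 ± 13865, and *Ttr*, the thyroxine carrier transthyretin, was at 703801 ± 100426 and 834620 ± 88726 and was not called (q = 0.302). Without *Ttr* the summed RPE markers ran from 974902 to 1445079 in WT and from 649446 to 932661 in rd6. Of 18 microglia and macrophage markers 17 were higher in rd6 and 1 was not called. None of the 18 was at 0 in any library, and their sum ran from 17644 to 23237 in WT and from 30329 to 47220 in rd6. The receptor gene *Csf1r* made up most of this sum in WT and was not called (q = 0.385), and without it the sum ran from 3254 to 4953 in WT and from 12793 to 26369 in rd6. Endothelial markers were higher for 9 of 12, with sums of 9863 to 18493 and 14257 to 34686, and rod markers were lower for 3 of 12, with sums of 33020 to 71013 and 17702 to 63327. In these bulk samples, fewer cells of a type and less RNA per cell cannot be told apart.

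Some libraries stood apart. WT 4 had the lowest RPE marker sum of the WT libraries, and rd6 5 had a rod marker sum of 63327, where the other rd6 libraries had 17702 to 23843. WT 6 was the highest WT library for several myeloid genes, among them the macrophage marker *Adgre1*, named after its value was seen, at 321 normalized counts against 42.3 to 99.1 in the other WT libraries. Without WT 6 the members called were 1 higher and 2 lower, as with all libraries. Results for the 10 genes are also given without WT 4 and rd6 5, a choice made after the values were seen. Without them 8 RPE markers and 9 rod markers were lower in rd6. Nothing in the labels says that the 6 libraries of a genotype came from separate litters or cages, so p-values measure the spread between these samples only, which may be technical in part.

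The promoter sequences of the 3 genes that passed the test, *Mertk*, *Axl* and *Itgav*, are shown here, since they belong to genes whose mRNA levels moved in different directions. Each is the 250 bases before the RefSeq start of the gene (GRCm38.p6, 5′ to 3′ on the strand of the gene), at chr2:128698665-128698914 (plus strand) for *Mertk*, chr7:25788734-25788983 (minus strand) for *Axl* and chr2:83724147-83724396 (plus strand) for *Itgav*. Capitals mark GGGCGG, the GC box, read on either strand (CCGCCC on the other).
Mertk: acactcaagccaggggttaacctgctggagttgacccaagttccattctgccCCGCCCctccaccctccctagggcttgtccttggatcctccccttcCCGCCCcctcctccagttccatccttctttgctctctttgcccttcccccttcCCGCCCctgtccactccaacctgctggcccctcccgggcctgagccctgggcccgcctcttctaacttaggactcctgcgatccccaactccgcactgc
Axl: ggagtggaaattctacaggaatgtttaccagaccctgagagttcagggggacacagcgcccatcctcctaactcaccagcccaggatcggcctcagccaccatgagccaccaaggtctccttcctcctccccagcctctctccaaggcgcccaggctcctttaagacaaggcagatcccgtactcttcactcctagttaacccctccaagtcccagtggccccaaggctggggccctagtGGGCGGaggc
Itgav: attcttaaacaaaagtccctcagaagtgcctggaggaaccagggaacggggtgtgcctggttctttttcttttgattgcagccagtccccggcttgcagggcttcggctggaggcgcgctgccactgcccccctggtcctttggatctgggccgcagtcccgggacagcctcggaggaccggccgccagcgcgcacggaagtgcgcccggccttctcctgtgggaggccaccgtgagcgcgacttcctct
The *Mertk* window held 3 GC boxes, the *Axl* window 1 and the *Itgav* window 0. The GC box was found in 32.7% of the 32851 promoter windows of the same build and in 9 of the 11 windows of the 10 genes (*Rubcn* has 2 starts). The E-box CACGTG was in 1 of the 11 windows and in 6.02% of all, the E-box CATGTG in 0 and in 12.3% of all, and the homeodomain core TAATCC in 1 and in 6.25% of all. The GC content was 63.6% for *Mertk*, 60% for *Axl* and 64.4% for *Itgav*, against a median of 52.4% over all windows. A match is a description of these letters and not a binding site.

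Of the 10 genes 1, *Axl*, was higher in rd6 and 2, *Mertk* and *Itgav*, were lower at q below 0.05. The other 7 were not called. Over all 17768 genes tested 23.0% were called, 11.4% higher and 11.6% lower, so that 3 of 10 is close to the share in the whole transcriptome. No member reached the fold of 1.75 that 6.80% of all genes passed together with q. The median log2 fold change of the 10 genes was 0.07 against 0.005 over all genes tested. Without WT 4 and rd6 5 the counts were 3 higher and 2 lower, with *Tyro3* and *Pros1* added on the higher side, and 25.9% of the 17619 genes tested were called in that fit, 12.7% higher and 13.2% lower.

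**Figure D1:**
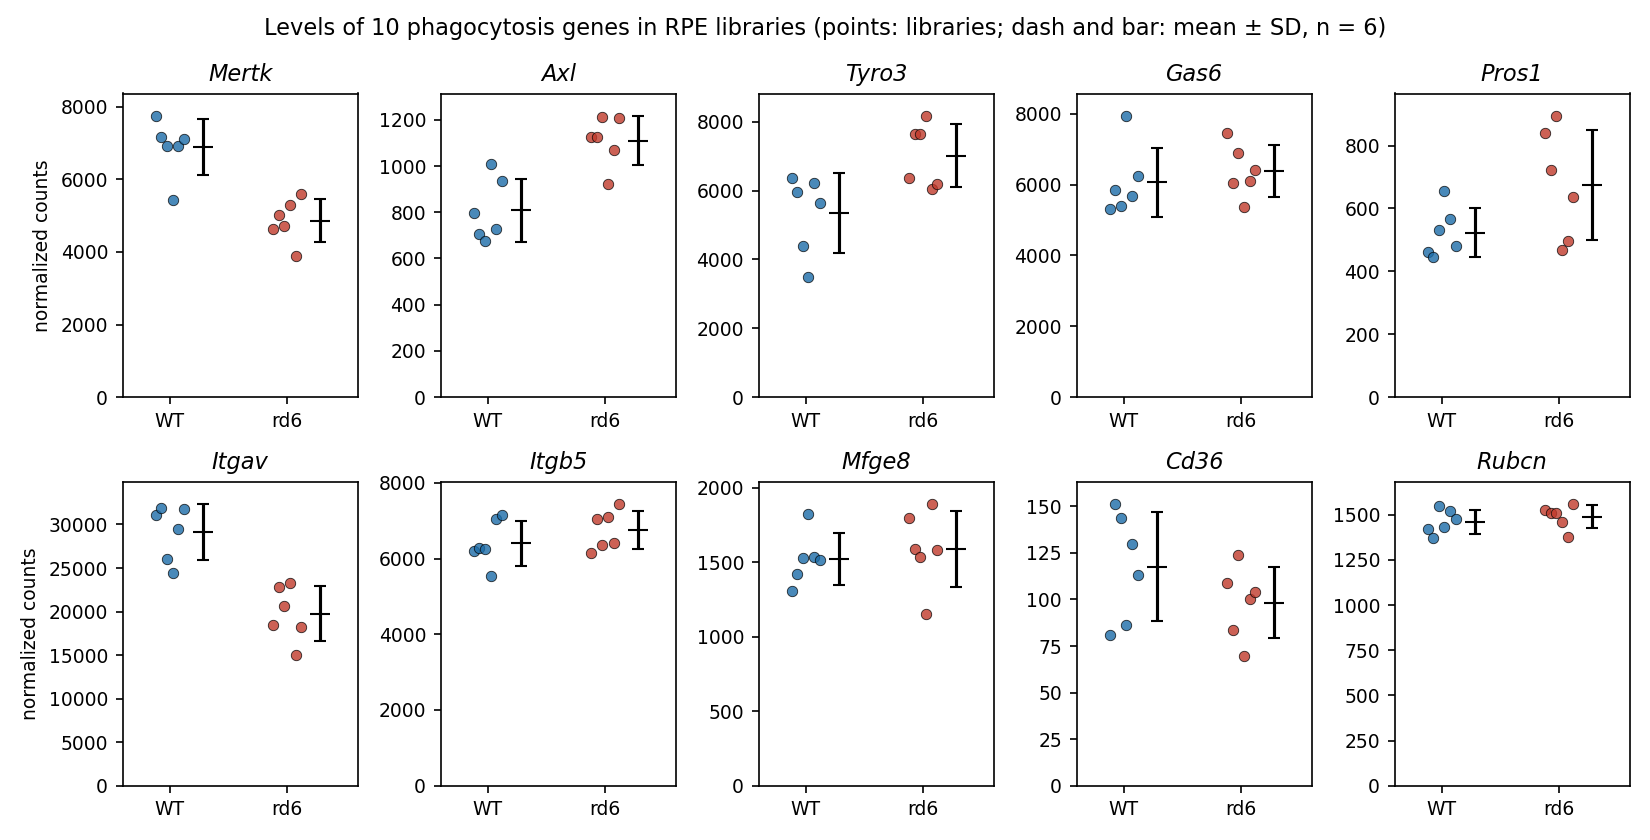
Normalized counts of the 10 genes (y axis, starting at 0) in each library (points) of WT (blue) and rd6 (red) RPE, with the mean and SD of 6 libraries beside each group. *Itgav* is the gene whose genotypes do not overlap, at 24479 or more in WT and 23306 or less in rd6.

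**Figure D2:**
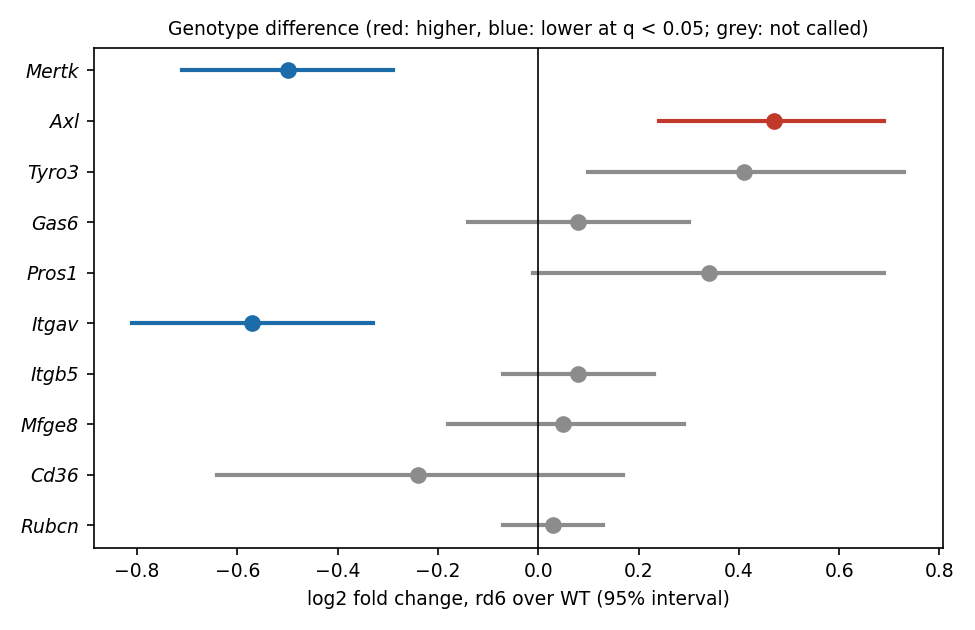
Log2 fold change of each gene, rd6 over WT, on the x axis (points) with its 95% interval from limma (lines), red for higher and blue for lower at q below 0.05 and grey for not called. *Mertk* and *Itgav* lie at -0.50 and -0.57 and *Axl* at 0.47.

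The 3 TAM receptors did not move together. *Mertk* (chr2:128698956-128802894, plus strand) encodes the receptor that drives OS ingestion. Its level was 5421 at the lowest, 7017 at the median and 7742 at the highest in WT, and 3887, 4872 and 5603 in rd6. The 5 WT libraries other than WT 4 lay above all 6 rd6 libraries, and WT 4, at 5421, lay below rd6 6. The mean fell from 6882 ± 777 to 4859 ± 599 (SD, n = 6 each). This is a log2 fold change of -0.50 (SE 0.10, 95% interval -0.71 to -0.29, q = 0.0024), or 1.42-fold lower in rd6. Over all 21 alternatives the log2 fold change of *Mertk* stayed between -0.57 and -0.44 and was called in each, at -0.51 without WT 4 and rd6 5. The RPE markers summed without *Ttr* were also lower in every rd6 library than in any WT library. With *Ttr* the sums overlapped, and of the 11 markers 4 were lower and 7 not called. The part of RPE content in the fall of *Mertk* was not tested.

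*Axl* (chr7:25757273-25788705, minus strand) encodes a TAM receptor that Gas6 binds tightly and that microglia and macrophages raise when activated. It had 675, 762 and 1007 normalized counts (lowest, median, highest) in WT and 924, 1125 and 1211 in rd6. Of the rd6 libraries 5 lay above every WT library, and rd6 4, at 924, lay within the WT range. The mean rose from 808 ± 135 to 1110 ± 106, a log2 fold change of 0.47 (SE 0.10, 95% interval 0.24 to 0.69, q = 0.00642), or 1.38-fold, and was 0.54 without WT 4 and rd6 5. The summed microglia and macrophage markers were also higher in all 6 rd6 libraries than in any WT library. Within rd6, the library with the lowest *Axl*, rd6 4, had the highest microglia and macrophage sum, 47220, and the lowest endothelial sum, 14257. The part of either cell type in the level of *Axl* was not tested.

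*Tyro3* (chr2:119797733-119818104, plus strand), the third TAM receptor, had 3494, 5811 and 6356 normalized counts (lowest, median, highest) in WT and 6057, 6998 and 8166 in rd6. All 6 rd6 libraries lay above the WT median and 4 above the WT maximum. The means were 5347 ± 1151 and 7008 ± 912, and the log2 fold change of 0.41 (SE 0.14, 95% interval 0.10 to 0.73) did not pass after adjustment (q = 0.0570 by limma). The call depended on the setting: *Tyro3* passed with TMM rescaling (q = 0.0482), with DESeq2 on the recovered reads (q = 0.0355), without WT 1 (q = 0.0464), without WT 5 (q = 0.0449) and without both WT 4 and rd6 5 (q = 0.0430).

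The make-up of the TAM receptor mRNA pool, taken within each library, differed between the genotypes. This measure does not depend on scaling between libraries. It does depend on the balance of cell types in the bulk samples, whose part was not tested. Levels per kb of exon were summed over the 3 receptors. *Mertk* made up 58.2 to 65.5% of the sum in WT and 42.5 to 51.1% in rd6, with no overlap, and its mean share went from 61.0 ± 2.53% to 45.3 ± 3.12%. The difference of -15.7 percentage points gave p = 0.00216 in a two-sided exact permutation test over 924 permutations of the genotype labels, the smallest p they can give. Without WT 4 and rd6 5 the difference was -15.0 points (exact permutation p = 0.00794). The *Tyro3* share was 32.7 ± 3.44% in WT and 45.7 ± 3.40% in rd6, and the *Axl* share was 6.32 ± 1.88% and 9.00 ± 1.22%. In rd6 *Tyro3* thus made up about as much of the pool as *Mertk*. The summed level of the 3 receptors was 2610 ± 338 and 2472 ± 231 normalized counts per kb, with ranges of 2014 to 2970 and 2086 to 2723 that overlapped widely.

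The TAM ligands showed no called change. *Gas6* (chr8:13465374-13494490, minus strand) had 5312, 5756 and 7934 normalized counts (lowest, median, highest) in WT and 5365, 6260 and 7461 in rd6. The WT maximum, in WT 4, lay above every rd6 library and the ranges overlapped almost fully. The means were 6063 ± 975 and 6381 ± 730, with a log2 fold change of 0.08 (95% interval -0.14 to 0.30, q = 0.614). This became 0.17 (q = 0.151) without WT 4 and rd6 5. The exons of *Gas6* share 34 bases with *Tmem255b* on the opposite strand.

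*Pros1* (chr16:62854307-62929346, plus strand), the gene of protein S, had 445, 507 and 654 normalized counts in WT (lowest, median, highest) and 469, 679 and 894 in rd6. The rd6 libraries were spread, with rd6 1, 2 and 3 at 839, 721 and 894 above the WT maximum and rd6 4, 5 and 6 at 469, 495 and 638 within the WT range. The means were 524 ± 77.9 and 676 ± 175, with a log2 fold change of 0.34 (95% interval -0.01 to 0.69, q = 0.156). The same 3 libraries, rd6 1, 2 and 3, had the highest endothelial marker sums, at 34664, 34686 and 26568 against 14257 to 22735 in rd6 4, 5 and 6, and the highest fibroblast and mural sums, at 26813 to 29344 against 16556 to 19863. The part of these cells in the level of *Pros1* was not tested. *Pros1* passed in 1 of the 21 alternatives, without both WT 4 and rd6 5 (log2 fold change 0.49, q = 0.0381).

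Of the summed ligand level per kb, *Gas6* made up 94.9 ± 0.577% in WT and 93.9 ± 1.04% in rd6. The difference of -0.99 percentage points did not pass the two-sided exact permutation test (p = 0.0736), and the ranges of 94.2 to 95.5% and 92.5 to 95.2% overlapped. The exact permutation test passed without rd6 4 (-1.18 points, p = 0.0476), without rd6 5 (-1.25 points, p = 0.0281) and without both WT 4 and rd6 5 (-1.20 points, p = 0.0476).

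The chains of the docking integrin went separate ways. *Itgav* (chr2:83724397-83806916, plus strand) encodes the alpha-v chain, which pairs with several beta chains. Its level was 24479, 30270 and 31891 normalized counts (lowest, median, highest) in WT and 15032, 19584 and 23306 in rd6. Every rd6 library lay below every WT library, and it was the only 1 of the 10 genes without overlap, against 11.4% of all genes tested (5.77% higher and 5.67% lower in rd6). The mean fell from 29133 ± 3162 to 19750 ± 3128, a log2 fold change of -0.57 (SE 0.11, 95% interval -0.81 to -0.33, q = 0.00258), which is 1.48-fold lower in rd6. It was called in all 21 alternatives, with log2 fold changes of -0.62 to -0.49, and -0.54 without WT 4 and rd6 5. As for *Mertk*, the RPE markers summed without *Ttr* were also lower (649446 to 932661 in rd6 against 974902 to 1445079 in WT). With *Ttr* the sums overlapped (1432526 to 1930878 against 1518498 to 2288803). The part of RPE content in the fall of *Itgav* was not tested, and *Itgb5* in the same libraries had a log2 fold change of 0.08. The exons of *Itgav* share 634 bases, 5.90% of their length, with the antisense transcript *Gm13684*, and whether counting used the strand was not stated.

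*Itgb5* (chr16:33829665-33949338, plus strand), the beta-5 chain that pairs with alpha-v at the apical RPE surface, had 5545, 6264 and 7151 normalized counts (lowest, median, highest) in WT and 6162, 6741 and 7431 in rd6. The ranges overlapped, and the means of 6409 ± 598 and 6759 ± 508 gave a log2 fold change of 0.08 (95% interval -0.07 to 0.23, q = 0.450). The ratio of *Itgb5* to *Itgav* per kb of exon was 0.595 to 0.726 in WT and 0.923 to 1.29 in rd6, with no overlap. On the log2 scale it moved from -0.586 ± 0.126 to 0.0618 ± 0.219, a difference of 0.648 (two-sided exact permutation p = 0.00216, the smallest possible). In WT the alpha-v chain was in excess of the beta-5 chain at the mRNA level, while in rd6 the levels were close to each other.

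**Figure D3:**
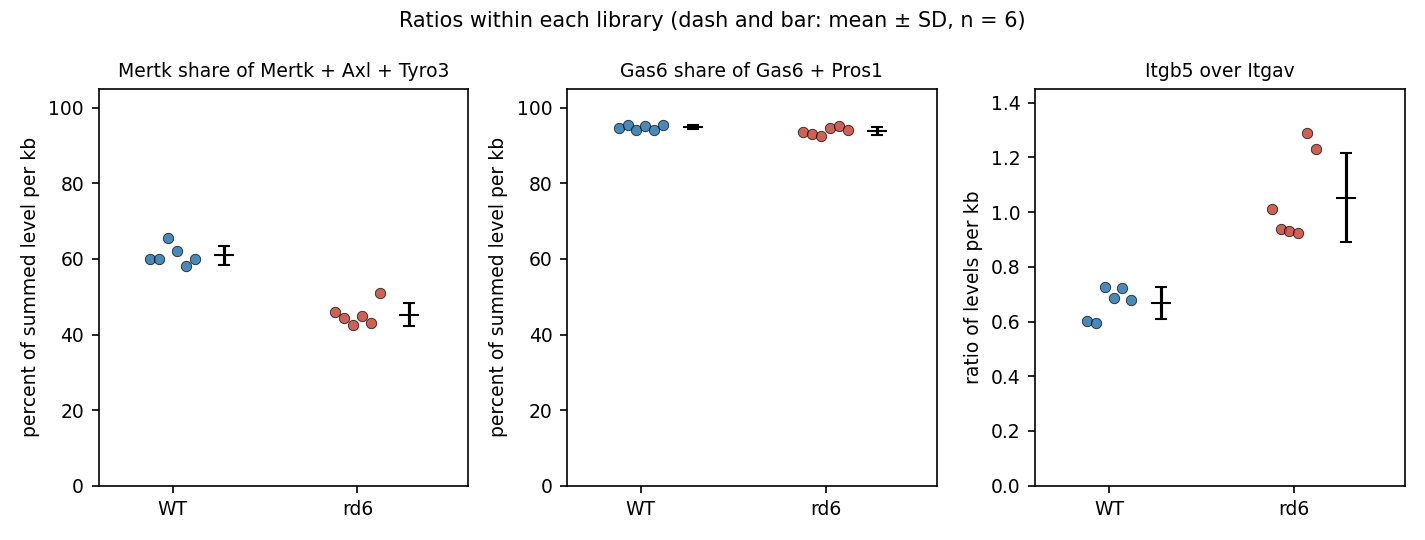
Ratios within each library (points, blue WT and red rd6, mean and SD of 6 beside them): the *Mertk* share of summed TAM receptor levels and the *Gas6* share of summed ligand levels in percent, and the ratio of *Itgb5* to *Itgav*, all per kb of exon. The *Mertk* share and the integrin ratio separate the genotypes without overlap, and the *Gas6* share does not.

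The remaining members showed no called change. *Mfge8* (chr7:79133768-79149060, minus strand), which bridges phosphatidylserine to alpha-v beta-5, had 1309, 1525 and 1825 normalized counts (lowest, median, highest) in WT and 1154, 1588 and 1889 in rd6, with a log2 fold change of 0.05 (95% interval -0.18 to 0.29, q = 0.758). The rd6 range enclosed the WT range. *Cd36* (chr5:17781690-17888801, minus strand), a scavenger receptor for oxidized lipids that takes part in OS uptake, was low, with 80.9, 121 and 151 normalized counts in WT and 69.7, 102 and 124 in rd6. Its log2 fold change of -0.24 had a wide interval, -0.64 to 0.17 (q = 0.394). *Rubcn* (chr16:32821703-32877766, minus strand), whose protein Rubicon directs LC3 to phagosomes and restrains autophagy, had the smallest spread of the 10 relative to its mean, with 1370, 1452 and 1548 in WT and 1377, 1510 and 1557 in rd6. Its log2 fold change of 0.03 had an interval of -0.07 to 0.13 (q = 0.689). With WT 4 and rd6 5 left out, the log2 fold changes were 0.06 for *Mfge8*, -0.33 for *Cd36*, 0.04 for *Rubcn* and 0.05 for *Itgb5*, and none of these was called (q = 0.254 or more). The exons of *Rubcn* share 171 bases with *Fyttd1* on the opposite strand.

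Levels can be compared between genes only per length of exon. In WT the order, in normalized counts per kb, was *Itgav* (2712 ± 294), *Gas6* (2380 ± 383), *Itgb5* (1804 ± 168), *Mertk* (1587 ± 179), *Tyro3* (863 ± 186), *Mfge8* (324 ± 36.6), *Rubcn* (195 ± 8.86), *Axl* (161 ± 26.8), *Pros1* (128 ± 19.1) and *Cd36* (32.7 ± 8.15). Neighbours whose ranges over libraries overlapped were *Itgav* and *Gas6*, *Itgb5* and *Mertk*, *Rubcn* and *Axl*, and *Axl* and *Pros1*. In rd6 the order began with *Gas6* (2504 ± 286), *Itgb5* (1902 ± 143), *Itgav* (1838 ± 291), *Tyro3* (1131 ± 147) and *Mertk* (1121 ± 138), followed by *Mfge8* (339 ± 54.3), *Axl* (221 ± 21.1), *Rubcn* (199 ± 8.55), *Pros1* (165 ± 42.9) and *Cd36* (27.4 ± 5.37). Here *Itgb5* and *Itgav*, *Tyro3* and *Mertk*, *Axl* and *Rubcn*, and *Rubcn* and *Pros1* overlapped. *Itgav* ranked above 97.0% of the genes tested with an exon length in WT and above 95.1% in rd6, *Mertk* above 94.3% and 91.9%, and *Cd36* above 27.5% and 24.0%.

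Deviations of *Mertk* from the mean of its genotype were compared with those of all other genes tested over the 12 libraries, as a description. The 5 genes most like *Mertk* were *Slc1a1* and *Car12* (r = 0.98 each) and *Lmbrd1*, *Abhd2* and *Gm15348* (r = 0.97 each). Without WT 4 and rd6 5 these were 0.91, 0.94, 0.93, 0.90 and 0.92 over 10 libraries. The libraries share depth and the balance of cell types, which such values also reflect. Among the members the closest was *Itgav* (r = 0.72), but this was 0.19 without the 2 libraries, and *Tyro3* went from 0.67 to 0.16. *Itgb5* went from 0.67 to 0.47 and was then the closest member. Over the 12 libraries negative values were found for *Mfge8* (r = -0.76, and -0.56 without the 2 libraries), *Gas6* (-0.59 and -0.58) and *Axl* (-0.33 and 0.01). They were also found for *Pros1* (-0.24 and -0.73) and *Cd36* (-0.01 and -0.58). *Rubcn* went from 0.37 to -0.25.

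Other genes of the pathway were grouped by role, and their calls came from the same limma fit. The counts of each list stand beside 23.0% called over all genes tested, 11.4% higher and 11.6% lower. Genotypes did not overlap for 11.4% of all genes tested. Among 10 further TAM ligands and bridging proteins 4 were higher, 2 lower and 4 not called, and the median log2 fold change was 0.29. The higher genes were *C1qa*, *C1qb* and *C1qc*, the chains of the complement opsonin C1q, and *Thbs1*, the gene of thrombospondin-1, which links apoptotic cells to CD36 and alpha-v integrin. *C1qa* rose from 271 ± 103 to 4787 ± 1574 (log2 fold change 4.14, q = 4.23e-07), and *C1qb* and *C1qc* by 3.71 and 3.72. These genes are known microglial products, the microglia and macrophage marker sum was higher in every rd6 library, and its part in the rise was not tested. *Thbs1* rose from 32240 ± 5122 to 75139 ± 9925 normalized counts (log2 fold change 1.23, SE 0.12, q = 1.46e-05) without overlap, and per kb it stood at 5309 in WT and 12373 in rd6, above each of the 10 genes in both genotypes. The tubby-family proteins *Tub* and *Tulp1*, proposed ligands of MerTK, were named after their values were seen. Neither was called (q = 0.651 and 0.328), and both were highest of all 12 libraries in rd6 5, the library with the high rod marker sum.

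Of 5 genes for Gla carboxylation, which Gas6 and protein S need for binding phosphatidylserine, and for receptor shedding, 1 was lower and 4 were not called. *Ggcx*, the gamma-glutamyl carboxylase, fell from 529 ± 23.3 to 402 ± 47.3 normalized counts (log2 fold change -0.40, SE 0.08, q = 0.00304), with every rd6 library below every WT library. *Adam17*, the sheddase that cleaves MerTK, was at 1238 ± 119 and 1295 ± 63.0 and was not called (q = 0.470), and it was named after its value was seen.

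Among 8 other integrin chains and partners 2 were higher, 2 lower and 4 not called, and the median log2 fold change was -0.09. *Itgb3*, a further beta partner of alpha-v, fell from 212 ± 21.7 to 136 ± 20.4 (log2 fold change -0.65, q = 0.00177), and *Itga3*, the alpha-3 chain of a laminin receptor, fell by 0.57 on the log2 scale (q = 0.000141). *Cd81*, a tetraspanin that works with alpha-v beta-5 in OS binding, rose by 0.28 (q = 0.00808) and *Cd47*, a "don't eat me" signal and thrombospondin receptor, by 0.39 (q = 0.00205). The most abundant beta chain was *Itgb8* at 9857 ± 1425 normalized counts per kb in WT and 8542 ± 1630 in rd6, named after its value was seen, and it was not called (log2 fold change -0.22, q = 0.318). In both genotypes *Itgb5* was thus not the main beta partner chain by mRNA level. Without WT 4 and rd6 5 the counts of this list were 3 higher and 2 lower.

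Of 18 other receptors for apoptotic cells 16 were tested, of which 6 were higher, 4 lower and 6 not called, with a median of -0.17. *Trem2*, a lipid receptor of microglia and macrophages, rose from 51.6 ± 12.4 to 1127 ± 383 (log2 fold change 4.37, q = 1.03e-07), and *Havcr2*, the phosphatidylserine receptor TIM-3, rose by 3.08 (q = 4.75e-06). *Cd14*, a co-receptor of macrophages, rose by 1.48 (q = 9.33e-06) and *Cd300lf*, a myeloid phosphatidylserine receptor, by 1.35 (q = 0.0256, but q = 0.0563 with edgeR, 0.0712 without WT 4 and rd6 5, and 0.0512 to 0.0556 without WT 3, WT 6, rd6 4 or rd6 6). All 4 are known in myeloid cells, whose marker sum without *Csf1r* was 12793 to 26369 in rd6 and 3254 to 4953 in WT, and the part of those cells was not tested.

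Among 40 genes of engulfment signalling and the cytoskeleton 6 were higher, 9 lower and 25 not called, with a median of 0.02. The 4 called genes with the largest changes were *Vav1* (2.74, q = 7.65e-05), *Dock2* (1.5, q = 0.000264), *Rac2* (1.43, q = 0.0461) and *Plcg2* (0.59, q = 0.000525). *Vav1*, *Dock2* and *Rac2* encode Rac regulators and a Rac protein of blood cells, and *Plcg2* a phospholipase. Of their relatives in the list, *Elmo1* was higher (0.54, q = 0.0368) and *Elmo2* lower (-0.37, q = 0.00282). *Dock1*, *Vav2* and *Vav3* were not called, and all of these were named after their values were seen. Of the microglia and macrophage markers 17 of 18 were higher in the same libraries, and their part was not tested. *Rac2* was at 230 normalized counts in WT 6 and 24.4 to 40.4 in the other WT libraries, and its call was lost in 15 of 20 alternatives, among them edgeR (q = 0.306) and the fits that left out any 1 library other than WT 6 and rd6 1. Among the lower genes, named after their values were seen, were *Pik3r1*, a regulatory subunit of PI3-kinase (log2 fold change -0.57, q = 0.000173), and *Src*, the kinase downstream of the docking integrin (-0.44, q = 0.00657). *Ptk2*, the focal adhesion kinase (0.17, q = 0.0903), and *Rac1* (0.04, q = 0.621), also named after the fact, were not called. With WT 4 and rd6 5 left out, 9 genes of this list were higher and 10 lower.

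Of 27 genes of LC3-associated phagocytosis 7 were higher and 20 not called, and the median log2 fold change was 0.08. Among these were *Ncf1* (2.69, q = 3.70e-05), *Ncf4* (1.89, q = 0.00235) and *Cyba* (1.00, q = 3.52e-05), which encode subunits of the phagocyte NADPH oxidase, while its catalytic subunit gene *Cybb* was not called (0.16, q = 0.601) and was named after its value was seen. Of the microglia and macrophage markers 17 of 18 were higher in rd6, and the part of those cells was not tested. *Ncf1* was at 44.9 ± 27.7 in WT and 274 ± 69.6 in rd6, and WT 6, at 101, was the highest WT library, as it was for *Ncf4* and *Rac2*. Also called were *Map1lc3a* (0.65, q = 0.000340) and *Map1lc3b* (0.17, q = 0.0468), which encode LC3, and *Lamp1* of lysosomes (0.29, q = 0.00335), named after their values were seen. *Map1lc3a* was at 6756 ± 924 in WT and 10545 ± 1004 in rd6 with no overlap. Without WT 4 and rd6 5 the counts were 6 higher and 1 lower.

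Of 10 tested genes of phosphatidylserine exposure 1 was lower, *Tmem30a*, the subunit of the flippases that keep phosphatidylserine inside the membrane (13262 ± 1274 to 10789 ± 1264, log2 fold change -0.30, q = 0.0265). This call was lost without WT 1 (q = 0.0596), WT 2 (q = 0.0604), WT 3 (q = 0.0503) or rd6 6 (q = 0.0517). Without WT 4 and rd6 5 the counts were 2 higher and 1 lower. Among 12 genes of the TAM response and its restraint 2 were higher, 1 lower and 9 not called. *Socs3*, which TAM signalling induces and which also answers to many cytokines, rose from 88.7 ± 44.6 to 330 ± 42.2 (log2 fold change 2.01, q = 0.000137) without overlap. *Abca1*, the cholesterol exporter, fell from 4375 ± 376 to 2825 ± 261 (log2 fold change -0.63, q = 5.84e-05), also without overlap, and *Ppard*, a lipid-sensing nuclear receptor, rose by 0.16 (q = 0.0288). The call of *Ppard* was lost in 9 of 21 alternatives, among them the fits without the filter on low values (q = 0.0571) and those without WT 1, WT 2, WT 3, WT 6, rd6 2 or rd6 4 or both WT 4 and rd6 5, with q of at most 0.0642.

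**Figure D4:**
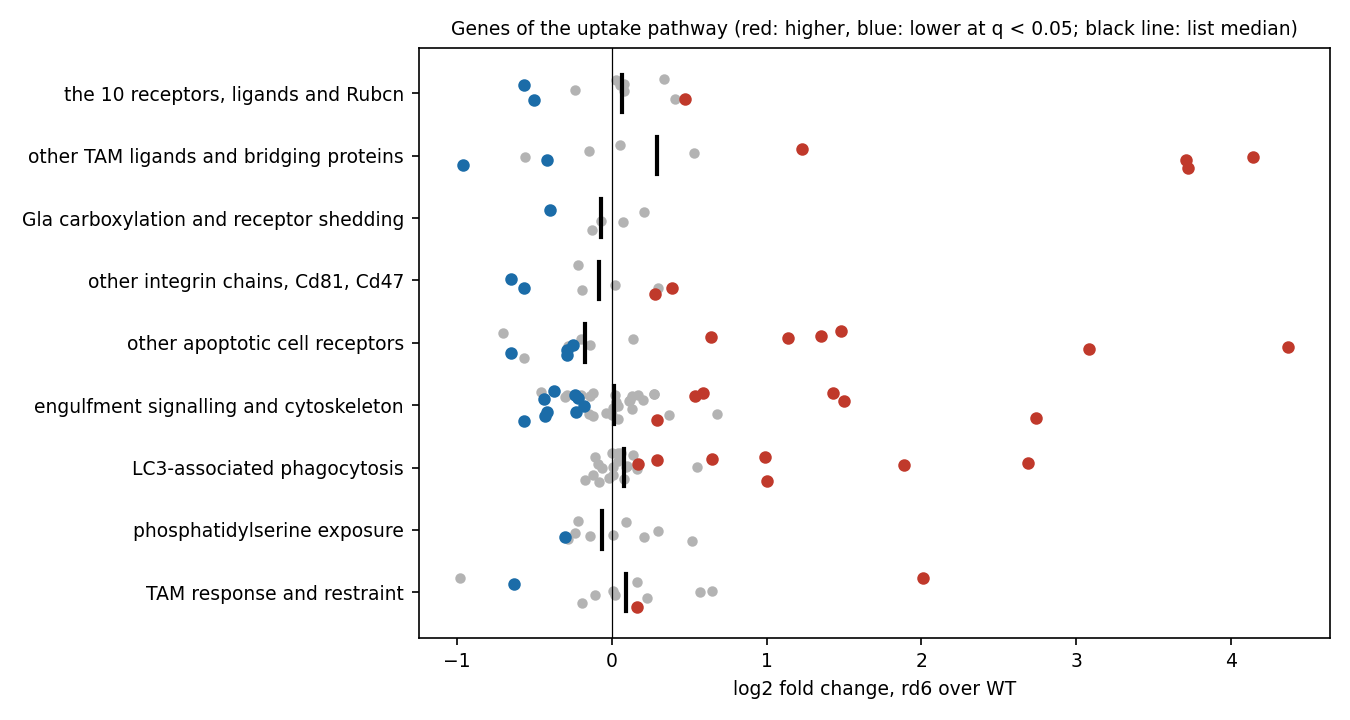
Log2 fold change, rd6 over WT (x axis), of every tested gene of the 10-gene group and of 8 lists of other pathway genes (points), red for higher and blue for lower at q below 0.05 and grey for not called, with the median of each list as a black line. List medians lie between -0.17 and 0.29, and the far points on the right are *C1qa*, *C1qb*, *C1qc*, *Trem2*, *Havcr2*, *Vav1* and *Ncf1*.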

How the data were processed

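Total RNA of RPE was sequenced as stranded read pairs by the authors, who aligned the reads to mm10, counted them per gene with Rsubread (standard parameters) and divided them by DESeq2 size factors. Versions and strand use were not stated. The deposited signal per gene and library is this normalized read count, and the deposited mean is the authors' own. The deposited log2 fold change, the Wald statistic (a score) and the p-value of rd6 against WT hold the authors' comparison and were not used.

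The table has 28596 entries for 28591 genes, and 5 repeated entries of 4 identifiers were dropped. All values were whole multiples of 1 read (tolerance 0.001), so reads were recovered. The 66 pairs of libraries differed by a chi-square of at least 9.49 per gene, so none is a copy. The main test was limma 3.58.1 (R 4.3.3, trend) on log2(value + 1) with genotype as the only term, for 17768 genes averaging 10 or more, called at q below 0.05. Shares and ratios within libraries used two-sided exact permutation tests. Levels per kb used exon lengths from GENCODE M21 (GRCm38). Alternatives were pseudocounts of 0.1 and 10, other filters, TMM rescaling, edgeR 4.0.16 and DESeq2 1.42.0 on recovered reads, the replicate number as a block, and leaving out libraries. Intervals of limma cover the spread between samples.

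The members and lists were chosen with earlier results of these data known. Named were all members, *Mfrp*, up to 4 called genes of each pathway list by size of change, up to 3 genes of each marker list by WT mean, and the 5 genes most like *Mertk*, except some that are not reported here. Same-numbered WT and rd6 libraries did not deviate together (mean r = -0.246), so numbers were not taken as pairs.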

Additional observations from a re-analysis of the deposited data

Results flagged for a closer look

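The distance of an outlying library from its nearest neighbour, as a share of the range of its 6 libraries, passed the Dixon limit for 6 values in 15 of the 114 groups examined, where chance gives about 1 in 20. WT 4 accounted for 6 of the 15, WT 6 for 5 and rd6 5 for 2. Among the 10 phagocytosis genes it passed for *Mertk* in WT (share of range 0.644), where WT 4 was the lowest at 5421 normalized counts, and for *Gas6* in WT (0.648), where WT 4 was the highest at 7934.

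WT 4 was also the highest WT library for *Cd47* (0.686, 1923 normalized counts), and the lowest for *Rgr* (0.629, 472739), *Csf1r* (0.738, 12921) and *Pmp22*, a myelin protein (0.830, 5776). WT 6 was the highest for *C1qb* (0.686, 629.3), *Vav1* (0.680, 53.17), *Rac2* (0.922, 230.1), *Ncf1* (0.834, 100.5) and *Ncf4* (0.722, 31.9). WT 5 was the highest for *Ppard* (0.672, 1002).

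In rd6, library 5 was the lowest for *Itgb3* (0.688, 95.71) and the highest for the rod transducin gene *Gnat1* (0.856, 14987). Library rd6 4 was the highest for *Acta2*, smooth muscle actin (0.741, 5580).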

How the results depend on the processing

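The calls of *Mertk*, *Axl* and *Itgav* held in all 21 alternatives, with adjusted p of at most 0.0179, 0.0363 and 0.0207. The count of members called higher was 1, and it became 2 with TMM rescaling and with DESeq2, ranged from 1 to 2 when 1 library was left out, and was 3 without WT 4 and rd6 5. The count of members called lower stayed at 2. Leaving out 1 library gave *Mertk* share differences of -16.8 to -14.8 percentage points, integrin ratio differences of 0.586 to 0.683 on the log2 scale, and *Gas6* share differences of -1.25 to -0.72 points. The last was -1.20 without WT 4 and rd6 5, which brought it past the threshold. Over all genes, 2024 were higher and 2062 lower, with TMM rescaling 2258 and 1802, with DESeq2 2336 and 2396, with edgeR 1981 and 2085, and with 1 library left out 1633 to 2431 and 1590 to 2301. *Col1a2*, a fibroblast collagen that was not called at -0.16, ranged from -0.29 to 0.00 with 1 library left out, the last without rd6 4. The causes of these shifts were not tested.

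The fit that took replicate numbers as a block called 1453 genes higher and 1489 lower, and 1 member higher and 2 lower. The numbers did not pair the libraries, since 1 of 6 same-numbered pairs had a correlation above 0.1. The block moved the adjusted p of *Mertk* to 0.0179, of *Axl* to 0.0363 and of *Itgav* to 0.0207. Among the other genes named, the calls of *Cd300lf*, *Rac2*, *Elmo1*, *Map1lc3b*, *Tmem30a*, *Ppard*, *Rlbp1*, *Cd74*, *Eng*, *Glul*, *Apoe* and *Pmp22* were lost with the block, at adjusted p of 0.0541 (*Tmem30a*) to 0.129 (*Cd74*). Over *Mfrp* and the pathway and marker genes named by rule, counted once per alternative, 852 calls were unchanged, 60 lost and 7 gained, and 1 value changed sign. Genes named after their values were seen and the genes most like *Mertk* were not in this count. Among the 10 members, *Cd36* had the fewest reads, at 70 to 151 normalized counts.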

Other observations

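Genes of the marker lists that belong in no comparison above are given as values. *Apoe* and *Clu*, listed as Mueller glia markers and also abundant in the RPE, rose from 205537 ± 22103 to 272214 ± 33817 and from 203613 ± 26330 to 307480 ± 27524 normalized counts (log2 fold changes 0.40 and 0.60, q = 0.0277 and 0.00316, the first lost without WT 1, WT 2, WT 3, rd6 4 or rd6 6, at q of up to 0.0601), while *Glul*, glutamine synthetase, fell by 0.23 (q = 0.00938). *Sox10*, a factor of melanocytes and Schwann cells, fell from 6160 ± 770 to 3960 ± 466 (q = 0.000540) and *Pmp22* by 0.32 (q = 0.0122), and *Mlana* was not called (q = 0.115). Of 8 markers in this list 5 were lower, of 8 Mueller glia markers 3 were higher and 1 lower, and of 12 fibroblast and mural markers 1 was higher and 1 lower.

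Of the endothelial markers, *Plvap* rose by 0.93 (q = 0.00696) and *Eng* by 0.76 (q = 0.0387, lost without WT 1, WT 2, WT 6, rd6 1, rd6 2, rd6 3 or rd6 6, at q of up to 0.0874), and *Vwf* was not called (q = 0.350). *Dcn* and *Acta2* of the fibroblast and mural list were not called (q = 0.0697 and 0.0632). *Cd74* of the microglia and macrophage list rose by 0.48 (q = 0.0363, lost without WT 1, WT 2, WT 6, rd6 1, rd6 2 or rd6 6, at q of up to 0.0786). Of the rod genes, *Rom1* fell by 0.63 on the log2 scale (q = 0.000563), and *Gnat1* was not called (q = 0.0737) with rd6 5 included.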
